A study of Mus musculus with 12 samples.

Results

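Loss of Nf1 was compared in whole mouse skin 14 days after injury, as 3 Nf1-KO libraries against 3 control libraries. These 6 libraries are all samples of the series that the labels call injured, of 12 in all, and the other 6 come from uninjured skin. Every mouse had Prss56Cre, a Cre driver, and R26tdTom, a reporter, and this was the whole genotype of the controls. The Nf1-KO mice were in addition Nf1flox/-, which is 1 floxed and 1 null allele of Nf1. Mice of every group were 3 months old with the strain given as C57BL/6 & B6D2, a mixed label, and the labels do not describe the injury or say whether the 3 libraries of a group come from separate animals. If they do not, the p-values below measure technical spread only. By this genotype every cell of an Nf1-KO mouse has at most 1 working copy, whereas the floxed copy is recombined only in cells in which the Prss56 promoter was active. Counts per gene do not separate the alleles or mark the recombined cells.

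Neurofibromin, the product of Nf1, is a GTPase-activating protein that returns RAS to its inactive state, and its loss prolongs signalling through RAS and ERK. Prss56 marks boundary cap cells, a transient neural crest population at the nerve roots of the embryo whose progeny include Schwann cells of skin nerves. Schwann cells wrap axons, in part with myelin, and after injury they can leave the myelinating state and support repair. Loss of NF1 in the Schwann lineage underlies neurofibromas, benign nerve sheath tumours that also hold fibroblasts, mast cells and macrophages. The genes below were therefore grouped as Schwann cell and nerve genes, epidermis, immune cells, matrix and vessels, and RAS signalling.

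Promoter sequences of 5 genes described below are shown first, 3 from epidermal and 2 from glial genes. Each is the 250 bases before the RefSeq start site, written 5′ to 3′ on the gene's strand (GRCm38.p6, the assembly of mm10). In the first 3, from the epidermal genes Krtdap, Sbsn and Lor, the capitals mark TGANTCA, a loose form of the core that AP-1 factors such as FOS and JUN bind. In the last 2, from the glial genes Gjc3 and Cmtm5, the capitals mark ACAANG or its complement, a loose form of the core that SOX factors bind. N stands for any base, so a marked stretch need not fit the core itself. Both strands were searched.
Krtdap: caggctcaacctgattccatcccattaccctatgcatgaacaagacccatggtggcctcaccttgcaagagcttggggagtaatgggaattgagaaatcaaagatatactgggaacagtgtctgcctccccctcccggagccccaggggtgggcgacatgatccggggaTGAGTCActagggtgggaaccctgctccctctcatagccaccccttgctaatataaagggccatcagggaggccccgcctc
Sbsn: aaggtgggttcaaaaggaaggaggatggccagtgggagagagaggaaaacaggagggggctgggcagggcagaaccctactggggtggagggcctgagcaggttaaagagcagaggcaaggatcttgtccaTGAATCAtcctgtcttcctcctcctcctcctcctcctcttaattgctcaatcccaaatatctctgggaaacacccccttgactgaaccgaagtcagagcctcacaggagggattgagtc
Lor: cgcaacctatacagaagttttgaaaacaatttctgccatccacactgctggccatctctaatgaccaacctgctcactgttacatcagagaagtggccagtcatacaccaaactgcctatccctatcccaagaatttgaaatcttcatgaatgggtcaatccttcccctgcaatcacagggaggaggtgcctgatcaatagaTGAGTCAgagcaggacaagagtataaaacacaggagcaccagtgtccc
Gjc3: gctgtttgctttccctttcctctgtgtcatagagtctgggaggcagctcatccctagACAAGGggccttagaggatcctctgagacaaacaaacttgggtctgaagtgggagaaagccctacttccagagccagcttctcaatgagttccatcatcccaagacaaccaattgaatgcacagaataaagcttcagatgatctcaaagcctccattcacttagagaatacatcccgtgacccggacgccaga
Cmtm5: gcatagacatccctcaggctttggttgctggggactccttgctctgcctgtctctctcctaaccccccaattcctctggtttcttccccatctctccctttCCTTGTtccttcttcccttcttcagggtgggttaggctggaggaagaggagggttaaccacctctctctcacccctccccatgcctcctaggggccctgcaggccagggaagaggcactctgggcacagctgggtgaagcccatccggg
The Krtdap sequence is chr7:30787655-30787904 (plus strand), the Sbsn sequence chr7:30751221-30751470 (plus strand) and the Lor sequence chr3:92083143-92083392 (minus strand). The Gjc3 sequence is chr5:137963099-137963348 (minus strand) and the Cmtm5 sequence chr14:54936247-54936496 (plus strand). The AP-1 pattern was found in 6 of the 16 differentiating keratinocyte genes that matched the promoter table (37.5%). These were Krtdap, Sbsn, Lor, Ivl, Flg and Flg2. A gene can have several promoters in that table. Counted by promoter, the pattern was in 6 of 17 (35.3%), against 6.75% of all 32851 promoters. The SOX core was found in 9 of 23 matched myelin and Schwann lineage genes (39.1%). Counted by promoter, it was in 13 of 39 (33.3%), against 36.3% of all promoters. A match describes letters in this window and not a bound site.

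The 6 injured libraries held 12681653 to 16809687 counts each. All 6 carried female markers, with Xist at 436 to 627 CPM (counts relative to library size) and the Y-linked Ddx3y at 0 to 0.0595 CPM, so sex did not separate the genotypes. The 6 uninjured libraries carried male markers, so skin state and sex cannot be told apart in any comparison of injured with uninjured skin. Keratins and collagens marked the tissue as skin, with Krt14 at 4289.5 to 8941 CPM. Ribosomal RNA-like transcripts took 11.5%, 4.26% and 4.78% of counts in the control libraries and 8.30%, 3.83% and 9.90% in the Nf1-KO libraries, each in the order 1 to 3. Nf1-KO 2 and 3 had counts for 31353 and 34592 genes, against 25188 to 28123 in the other 4. Receptor genes of the nose, taken as a measure of background, were also highest in these, at 0.0179 and 0.0533 CPM per kb against 0.00229 to 0.00658 in the others. Genes of low count are therefore given with this in view, and results that rest on Nf1-KO 3 are given without it as well.

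Nf1 itself (mm10 chromosome 11, 79339693 to 79581612) had counts in all 6 injured libraries. Control libraries 1 to 3 stood at 16.6, 9.56 and 11.8 CPM and the Nf1-KO libraries at 10.6, 8.75 and 15.8 CPM. Every level is given on this TMM-normalised scale, in the order of libraries 1 to 3. The log2 difference of the means was -0.11, with a 2-sided exact permutation p of 0.7, where 3 against 3 cannot go below 0.1. The groups overlapped, and counts over the whole gene do not check the genotype labels, since a recombined or null allele may still be transcribed. Prss56 (chromosome 1, 87183313 to 87188405) had 0 counts in each control library, and its counts in the Nf1-KO libraries were 0, 9 and 2. The 2 Nf1-KO libraries with counts are those with the highest background.

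No gene differed between Nf1-KO and control injured skin at an adjusted p under 0.05 in edgeR's quasi-likelihood test (0 of 23635 genes tested, 0.0%). At an unadjusted p under 0.05, 2159 genes were higher in Nf1-KO (9.13%) and 373 were lower (1.58%), and with median-of-ratios scaling these were 1783 and 631. The excess of higher genes was concentrated among genes of low count. Of the 15431 genes that averaged at least 2 CPM in injured libraries, 564 were higher (3.65%) and 324 lower (2.1%) at an unadjusted p under 0.05. Without Nf1-KO 3, the count of higher genes at that p went from 2159 to 722, and that of lower genes from 373 to 470. DESeq2, run as an alternative, called 63 genes higher (0.29% of 21722) and 61 lower (0.281%), of which 20 higher and 53 lower genes averaged at least 2 CPM. In edgeR, leaving out Nf1-KO 1 gave 54 higher and 3 lower calls, leaving out Nf1-KO 2 gave 52 and 37, leaving out Nf1-KO 3 gave 0 and 1, and leaving out control 1 gave 1 and 1. The number of calls thus depended on the tool and on single libraries, and the genes below are described by their values in each library and not as changed genes. Genotype differences are log2 fold changes from edgeR, Nf1-KO minus control, ± SE (n = 3 libraries a group). For the genes named below the adjusted p in edgeR ranged from 0.079 to 0.989 in this comparison. The median log2 fold change was 0.12 over all genes tested and 0.04 over genes averaging at least 2 CPM. Of all 23635 genes tested, 15495 had a positive and 8096 a negative log2 fold change. Of the 15431 averaging at least 2 CPM, 8940 were positive and 6490 negative.

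Genes of myelinating Schwann cells stood higher in Nf1-KO injured skin. Of 17 myelin genes measured, 16 had a positive log2 fold change, 6 were higher at an unadjusted p under 0.05 (35.3%, against 9.13% of all genes tested) and none was lower. In the same 6 genes, Pmp2, Cldn19, Mal and Cnp among them, all 3 Nf1-KO libraries were above all 3 control libraries, which held for 6.37% of all genes tested. The median log2 fold change of the list was 0.48, and 0.33 without Nf1-KO 3. The summed level of the list did not separate the genotypes, at 370 CPM, 588 CPM and 447 CPM in the controls and 494 CPM, 626 CPM and 582 CPM with Nf1 lost. None of the 17 passed the adjusted test.

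Pmp2 (chromosome 3, 10179851 to 10183929), a fatty acid-binding protein of compact myelin, was near the detection limit in controls at 0.178, 0.317 and 0.468 CPM and stood at 2.63, 1.69 and 3.10 CPM in Nf1-KO libraries. The lowest Nf1-KO library was thus above the highest control library by more than the control libraries spread among themselves (log2 fold change 2.88 ± 0.64, adjusted p = 0.346, and adjusted p = 0.0179 in DESeq2). Without Nf1-KO 3 the log2 fold change was 2.67. Cldn19, a claudin of Schwann cell junctions, was at 0.355, 0.823 and 0.535 CPM in control and 1.99, 1.55 and 1.89 CPM in Nf1-KO libraries (1.62 ± 0.47). Its levels were low but close together within each genotype. Mal, a protein of myelin membranes, was at 2.22, 3.29 and 2.87 CPM in control and 3.46, 4.37 and 9.21 CPM in Nf1-KO libraries (1.00 ± 0.39, and 0.43 without Nf1-KO 3). Cnp, a phosphodiesterase of myelinating glia, was at 24.5, 29.7 and 25.3 CPM in control and 31.7, 36.0 and 45.7 CPM in Nf1-KO libraries (0.51 ± 0.21, and 0.31 without Nf1-KO 3). Other structural genes of myelin differed less: Mbp, myelin basic protein, was at 35.5, 39.8 and 43.2 CPM in control and 39.7, 51.1 and 54.6 CPM in Nf1-KO libraries (0.29 ± 0.23), and the ranges overlapped. Prx, a scaffold of myelinating Schwann cells, had a log2 fold change of 0.75 ± 0.40 with overlapping groups.

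The rule for named genes also brought up genes of glial cells that were on no list. Gjc3, a connexin of Schwann cells, was at 0.444, 1.27 and 0.869 CPM in control and 4.30, 1.76 and 9.55 CPM in Nf1-KO libraries (2.55 ± 0.59). Cmtm5, a membrane protein of myelinating glia, was at 0.978, 1.39 and 0.936 CPM in control and 4.04, 2.26 and 10.1 CPM in Nf1-KO libraries (2.28 ± 0.51). In all of these the groups did not overlap, which the rule required, so the separation itself is no finding. Col20a1, a collagen expressed in Schwann cell precursors, was at 1.87, 1.39 and 1.47 CPM in control and 3.65, 3.24 and 11.96 CPM in Nf1-KO libraries, and its log2 fold change of 1.99 ± 0.47 was 1.09 without Nf1-KO 3.

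Genes of the wider Schwann lineage pointed the same way but rested more on 1 library. Of 20 measured, 15 had a positive log2 fold change, as did 15495 of all 23635 genes tested. At an unadjusted p under 0.05, 9 were higher (45.0%, against 9.13% of all genes tested) and none lower. In 4 of the 20 all Nf1-KO libraries were above all control libraries, against 6.37% of all genes. The median was 0.70 with all libraries and 0.24 without Nf1-KO 3. The summed level was 515 CPM to 542 CPM in the controls, 547 CPM and 513 CPM in Nf1-KO 1 and 2, and 656 CPM in Nf1-KO 3. S100b, the calcium-binding protein used to stain Schwann cells, was at 4.18, 4.43 and 3.27 CPM in control and 9.30, 5.57 and 15.0 CPM in Nf1-KO libraries (1.32 ± 0.34). Every Nf1-KO library was above every control library for S100b. Foxd3, a transcription factor of neural crest and early glia, was at 2.31, 2.72 and 2.00 CPM in control and 6.47, 3.03 and 16.6 CPM in Nf1-KO libraries (1.88 ± 0.51, and 0.99 without Nf1-KO 3). Sox10, the lineage-defining factor of Schwann cells, which melanocytes also express, was at 8.98, 13.7 and 7.35 CPM in control and 19.0, 12.5 and 45.7 CPM in Nf1-KO libraries (1.36 ± 0.37, and 0.61 without Nf1-KO 3). For Sox10, Nf1-KO 2 lay within the control range. Cadm4 and Cadm2, adhesion molecules between glia and axon, had log2 fold changes of 0.84 ± 0.31 and 1.24 ± 0.39 with no overlap. Cdh19, Ngfr, Scn7a and Gap43, which mark non-myelinating, immature or repair Schwann cells, had log2 fold changes of 1.52, 1.19, 1.00 and 1.61. In each of these 4, Nf1-KO 2 lay within or below the control range. Erbb3, the neuregulin receptor on which Schwann cells depend and which keratinocytes also express, was at 87.0, 77.5 and 85.1 CPM in control and 69.3, 78.8 and 77.2 CPM in Nf1-KO libraries (-0.15 ± 0.18). Fewer cells of a type and less RNA per cell cannot be told apart in whole skin, here or in any list below.

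**Figure D1:**
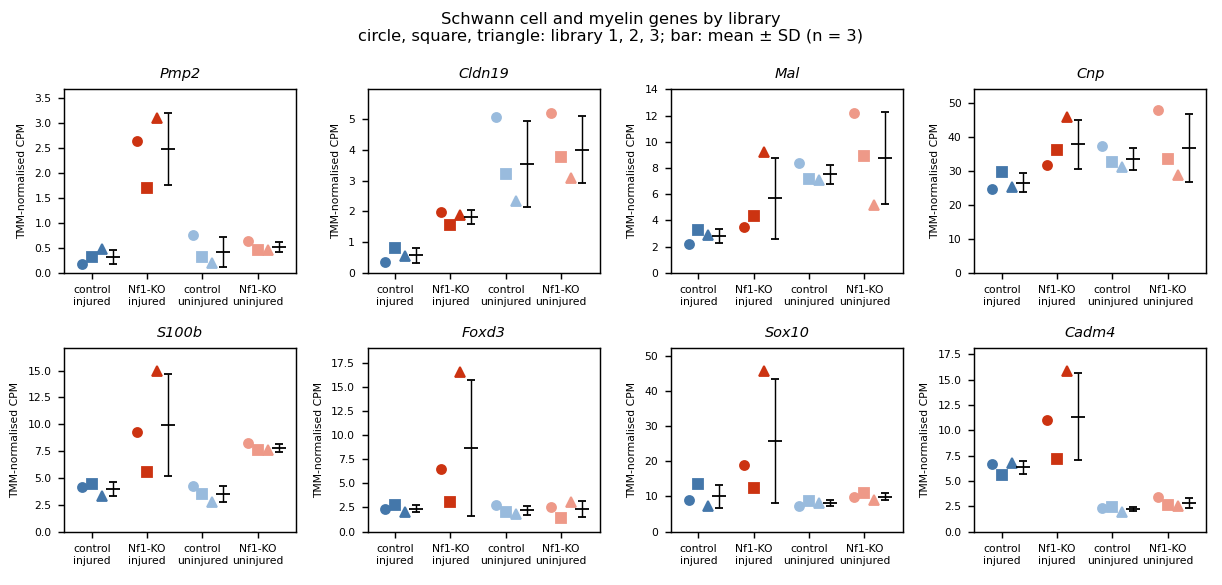
Levels of 8 Schwann cell and myelin genes (TMM-normalised CPM, vertical axis from 0) in each library of the 4 groups; symbols are libraries 1 to 3 and bars the mean ± SD (n = 3). For all but Sox10 the 3 Nf1-KO injured libraries lie above the 3 control injured libraries, and for S100b, Foxd3, Sox10 and Cadm4 Nf1-KO injured 3 is the highest library of all. The genes drawn were picked for display, and the groups separated in this way in 6 of 17 myelin and 4 of 20 Schwann lineage genes.

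Melanocyte genes, which share Sox10 and Ngfr-expressing precursors with glia, were measured beside them. All 14 averaged at least 2 CPM and had a positive log2 fold change (median 0.49). At an unadjusted p under 0.05, 1 was higher (7.14%, against 3.65% of all genes at that level), which is Sox10 itself. Their summed level was 1058 CPM, 748 CPM and 1029 CPM in control libraries and 1236 CPM, 1967 CPM and 692 CPM in Nf1-KO libraries. The summed level was thus highest in Nf1-KO 2 and lowest in Nf1-KO 3, whereas Sox10 and Foxd3 were highest in Nf1-KO 3.

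Sensory axon genes were near the detection limit. Of 12 measured, 3 averaged at least 2 CPM, 4 were higher (33.3%) and 1 lower (8.33%) at an unadjusted p under 0.05, against 9.13% and 1.58% of all genes tested, and no gene separated the groups. Among neurotrophic factors and receptors, 2 of 17 were higher at that p, a share of 11.8% and thus near that of all genes. Another 2 were lower (11.8%, against 1.58% of all genes tested). Gfra2, the receptor for neurturin, was at 7.82, 7.60 and 8.69 CPM in control and 19.2, 11.9 and 23.5 CPM in Nf1-KO libraries (1.17 ± 0.32). Nrtn, which encodes neurturin, had a log2 fold change of -0.57 ± 0.26 with no overlap.

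Genes of the differentiating epidermis stood lower in Nf1-KO injured skin. All 20 genes measured averaged at least 2 CPM, and 18 had a negative log2 fold change. At an unadjusted p under 0.05, 9 were lower (45.0%, against 2.1% of all genes at that level) and none was higher. In 8 of the 20 (40.0%), all Nf1-KO libraries were below all control libraries, against 3.5% of all genes at that level. The median was -0.68, and it stayed between -0.85 and -0.57 when each injured library was left out in turn. The summed level of the list was 23617 CPM, 32692 CPM and 27647 CPM in the controls and 16382 CPM, 18406 CPM and 15411 CPM with Nf1 lost. None of the 20 passed the adjusted test in edgeR, while DESeq2 called 4 of them lower, Krtdap, Krt77, Sbsn and Klk5.

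Krtdap (chromosome 7, 30787896 to 30791097) encodes a secreted protein of the suprabasal layers. Its level was 4789, 5291 and 4981 CPM in control libraries and 2858, 2770.5 and 2937 CPM in Nf1-KO libraries. The spread within each genotype was small beside the gap between them (-0.81 ± 0.24, adjusted p = 0.355, and adjusted p = 3.29e-05 in DESeq2). Sbsn, suprabasin, lies near Krtdap on chromosome 7, and was at 1652, 1299 and 1124 CPM in control and 876, 761 and 837 CPM in Nf1-KO libraries (-0.72 ± 0.23). Dmkn, dermokine, the third secreted protein gene of that cluster, which was on no list and was chosen after its values were seen, was at 2633, 2851 and 2703 CPM in control and 1531, 1740.4 and 1472 CPM in Nf1-KO libraries (-0.79 ± 0.22). These neighbours are not independent examples. Krt77, a keratin of the suprabasal epidermis, was at 2572, 2268 and 1964 CPM in control and 1441, 1398 and 1173 CPM in Nf1-KO libraries (-0.76 ± 0.24). Krt1 and Krt10 form the keratin pair of the spinous layer. Krt1 was at 3648, 6024 and 4707 CPM in control and 2752, 2937 and 2774 CPM in Nf1-KO libraries (-0.76 ± 0.32). Krt10 had a log2 fold change of -0.75 ± 0.30 with 1 control library inside the Nf1-KO range.

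Proteins of the outermost layers followed the same direction. Klk5 and Klk7 are proteases that shed the cornified cells. Klk5 was at 255, 323 and 329.5 CPM in control and 177, 217 and 169.7 CPM in Nf1-KO libraries (-0.69 ± 0.22). Klk7 was at 1083, 1156 and 1262 CPM in control and 564, 953 and 554 CPM in Nf1-KO libraries (-0.76 ± 0.25). Lor, loricrin, the main protein of the cornified envelope, was at 2976, 3778 and 3052 CPM in control and 2477, 1939 and 2380.2 CPM in Nf1-KO libraries (-0.53 ± 0.26). The groups did not overlap for any of these 3 genes. Asprv1, the protease that processes profilaggrin, and Hrnr, a filaggrin relative, had log2 fold changes of -1.03 ± 0.34 and -1.09 ± 0.48. Flg, filaggrin itself, had a log2 fold change of -0.81 ± 0.60. Abca12, the lipid transporter that fills lamellar granules, was named by the rule and was at 107, 105 and 115 CPM in control and 49.1, 73.2 and 53.6 CPM in Nf1-KO libraries (-0.89 ± 0.21).

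Basal and wound-activated keratinocyte genes leaned the same way without passing even the unadjusted test. Of 13 basal genes, 12 had a negative log2 fold change (median -0.31) and none had an unadjusted p under 0.05. Krt14 was at 8941, 7206 and 8688 CPM in control and 4289.5, 6297 and 5724 CPM in Nf1-KO libraries (-0.61 ± 0.35), and Krt5, its partner, had a log2 fold change of -0.39 ± 0.26, both with no overlap. Of 19 wound-activated genes, 18 had a negative log2 fold change (median -0.68) and none had p under 0.05. Their SEs were wide. Krt16, the keratin of activated epidermis, was at 4049, 1414 and 2846 CPM in control and 1249.6, 909 and 1913 CPM in Nf1-KO libraries (-1.03 ± 1.94). Sprr1b, an envelope precursor induced by stress, was at 480.0, 509 and 675 CPM in control and 263, 194 and 286 CPM in Nf1-KO libraries (-1.16 ± 1.80). For Sprr1b the groups did not overlap.

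**Figure D2:**
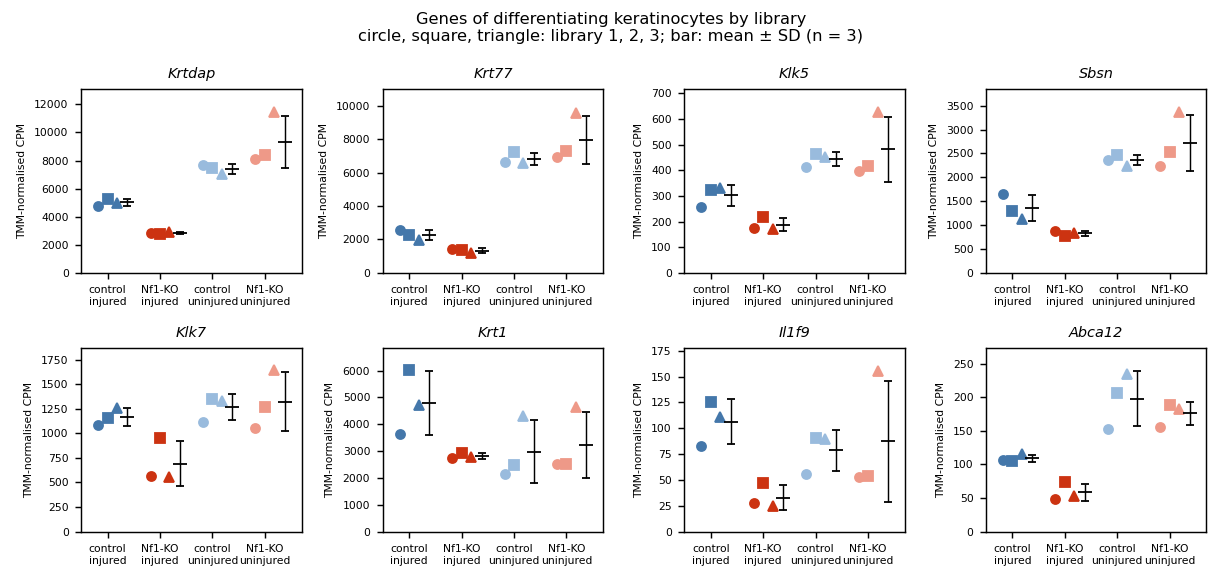
Levels of 8 genes of differentiating keratinocytes, Il1f9 and Abca12 among them (TMM-normalised CPM, vertical axis from 0), in each library of the 4 groups; symbols are libraries 1 to 3 and bars the mean ± SD (n = 3). In all 8 the Nf1-KO injured libraries lie below the control injured libraries without overlap. The genes drawn were picked for display, and the groups separated in this way in 8 of the 20 genes of the differentiating keratinocyte list. In uninjured skin the groups overlap in 7 of the 8 genes drawn, and for Krtdap the Nf1-KO libraries lie above the controls.

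Interleukin, FGF and EGF, and WNT genes went both ways as lists, and in these lists the few with an unadjusted p under 0.05 were lower. Of 23 interleukin and cytokine genes, 10 had a positive and 13 a negative log2 fold change, and 3 were lower (13.0%, against 1.58% of all genes tested) and none higher (against 9.13%) at an unadjusted p under 0.05. Il1f9, which encodes interleukin 36 gamma, was at 83.0, 126 and 111 CPM in control and 27.3, 46.7 and 24.5 CPM in Nf1-KO libraries (-1.70 ± 0.41, and adjusted p = 0.00303 in DESeq2). The highest Nf1-KO library was well below the lowest control library. Il1f5, which encodes the interleukin 36 receptor antagonist and was chosen after its values were seen, had a log2 fold change of -0.84 ± 0.22. Il18 and Il1a, cytokines stored in epidermis, had log2 fold changes of -0.79 ± 0.32 and -0.89 ± 0.38 with overlapping groups. Of 22 FGF and EGF family genes, 9 had a positive and 13 a negative log2 fold change (median -0.07), and 3, Ereg, Btc and Fgf18, were lower at that p (13.6%) and none higher. In 2 of the 22 all Nf1-KO libraries were below the controls (9.09%, against 2.67% of all genes tested). In 1, Fgf10, all were above them (0.66 ± 0.32), a share of 4.55% against 6.37% of all genes tested. The EGF receptor ligands Ereg, at 22.4, 34.2 and 24.1 CPM in control and 16.0, 15.3 and 9.90 CPM in Nf1-KO libraries, and Btc had log2 fold changes of -0.97 ± 0.34 and -0.74 ± 0.32. Wnt16, a ligand of the epidermis and follicle, was at 3.64, 4.24 and 3.21 CPM in control and 0.769, 1.90 and 1.03 CPM in Nf1-KO libraries (-1.58 ± 0.40). Sostdc1 and Wnt10a were the other WNT pathway genes with p under 0.05, at -0.57 ± 0.21 and -0.50 ± 0.22. These were the 3 lower genes of 25 measured, against 1.58% of all genes tested, and of the 25, 11 had a positive and 14 a negative log2 fold change (median -0.02).

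Genes of the growing hair follicle did not pass even the unadjusted test. None of 12 hair shaft keratins, 11 inner root sheath genes or 15 hair matrix regulators had an unadjusted p under 0.05. Krt31, a keratin of the hair cortex, was at 217, 195 and 484 CPM in control and 524, 688 and 228 CPM in Nf1-KO libraries (0.68 ± 0.39). Levels of the follicle lists varied within each genotype. The summed hair shaft keratins were at 2926 CPM, 2386 CPM and 7335.5 CPM in control and 8062 CPM, 8526 CPM and 3235 CPM in Nf1-KO libraries, and the groups overlapped. In the sebaceous gland list, Soat1, an enzyme that esterifies cholesterol, was at 112, 89.3 and 81.8 CPM in control and 145, 179.9 and 153 CPM in Nf1-KO libraries (0.76 ± 0.22). All 14 genes of that list averaged at least 2 CPM. At an unadjusted p under 0.05, 1 was higher and 1 lower (7.14% each, against 3.65% and 2.1% of all genes at that level).

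Macrophage genes stood higher in 2 of the 3 Nf1-KO libraries. Of 19 measured, 18 had a positive log2 fold change and 13 were higher at an unadjusted p under 0.05 (68.4%, against 9.13% of all genes tested), yet in none did the groups separate. Their summed level was 1118 CPM, 1365 CPM and 1477 CPM in the controls and 2093 CPM, 1322 CPM and 2763 CPM with Nf1 lost. Nf1-KO 2 therefore lay within the control range. The median was 0.95 with all libraries and 0.47 without Nf1-KO 3. Ccr2, the chemokine receptor of recruited monocytes, was at 23.9, 20.7 and 16.5 CPM in control and 48.4, 23.2 and 79.1 CPM in Nf1-KO libraries (1.30 ± 0.34, and 0.79 without Nf1-KO 3). Trem2, a lipid receptor of tissue macrophages, was at 5.51, 9.05 and 12.7 CPM in control and 19.2, 10.7 and 50.3 CPM in Nf1-KO libraries (1.55 ± 0.48, and 0.70 without Nf1-KO 3). C1qa, C1qb and C1qc, the chains of complement C1q made by macrophages, had log2 fold changes of 0.98, 1.01 and 0.95, each with Nf1-KO 2 at or below the control maximum. Pirb, an inhibitory receptor of myeloid cells named by the rule, was at 9.33, 6.40 and 10.8 CPM in control and 22.6, 12.6 and 39.3 CPM in Nf1-KO libraries (1.49 ± 0.35).

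Dendritic cell genes included a few that separated the groups. Of 15 genes of dendritic cells and MHC class II, 9 were higher at an unadjusted p under 0.05 (60.0%, against 9.13% of all genes tested). In 5, Cd209a, Xcr1, Ciita, Clec9a and Zbtb46, all Nf1-KO libraries were above the controls (33.3%, against 6.37% of all genes). The median of the list was 0.58 with all libraries and 0.25 without Nf1-KO 3. Its summed level was 2350 CPM, 2209 CPM and 2476.5 CPM in the controls and 2965 CPM, 2302.5 CPM and 4770 CPM with Nf1 lost. Nf1-KO 2 thus lay within the control range. Cd209a, a lectin of dermal dendritic cells, was at 8.26, 10.6 and 11.3 CPM in control and 19.5, 21.3 and 19.3 CPM in Nf1-KO libraries (0.99 ± 0.27). It did not depend on Nf1-KO 3, with 0.97 without it. Xcr1 and Clec9a, receptors of cross-presenting dendritic cells, had log2 fold changes of 1.97 ± 0.60 and 1.40 ± 0.55 at low levels. Xcr1 was highest in Nf1-KO 3, at 0.444, 1.27 and 1.54 CPM in control and 2.76, 1.98 and 8.35 CPM in Nf1-KO libraries. Ciita, the master activator of MHC class II, had 0.84 ± 0.29. The class II genes H2-Ab1 and H2-Aa and their chaperone Cd74 had log2 fold changes of 0.53, 0.58 and 0.48, and without Nf1-KO 3 these were 0.18, 0.14 and 0.10.

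T cell genes lay on both sides. Cd3e, a chain of the T cell receptor complex, was at 14.5, 16.1 and 17.6 CPM in control and 9.04, 10.2 and 7.23 CPM in Nf1-KO libraries (-0.86 ± 0.29). Trbc2, a constant region of the receptor beta chain, was at 49.4, 46.5 and 50.3 CPM in control and 31.4, 37.0 and 29.7 CPM in Nf1-KO libraries (-0.58 ± 0.18). Both were lower in every Nf1-KO library than in any control library. Trac, the constant region of the alpha chain, lay on the other side, at 1.51, 1.65 and 1.67 CPM in control and 2.24, 2.12 and 2.93 CPM in Nf1-KO libraries (0.59 ± 0.41). Of 17 T and natural killer cell genes, 3 were lower (17.6%) and 1, Cd8a, was higher (5.88%) at an unadjusted p under 0.05, against 1.58% and 9.13% of all genes tested. Cd8a had 0, 2 and 2 counts in control and 15, 8 and 15 counts in Nf1-KO libraries. Gzmc, a granzyme named by the rule, was at 11.1, 9.37 and 6.55 CPM in control and 3.01, 2.40 and 2.75 CPM in Nf1-KO libraries (-1.72 ± 0.39). Tnfrsf18, which encodes the costimulatory receptor GITR, was at 61.1, 56.7 and 61.3 CPM in control and 29.9, 43.5 and 29.3 CPM in Nf1-KO libraries (-0.80 ± 0.18). Of 14 mast cell genes none was higher and 2 were lower (14.3%, against 1.58% of all genes) at an unadjusted p under 0.05. Of those 2, Mcpt2 had its counts almost entirely in 1 control library (0, 912 and 2 counts in control libraries 1 to 3).

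The differences of interferon response, matrix and vessel genes rested on Nf1-KO 3. All 20 interferon response genes had a positive log2 fold change, with a median of 0.71, but the median was -0.01 without Nf1-KO 3. Their summed level was 562 CPM in Nf1-KO 3 and 194 CPM to 266 CPM in the other 5 libraries. Oasl2, an antiviral gene, was at 15.9, 11.2 and 16.2 CPM in control and 15.4, 17.4 and 57.6 CPM in Nf1-KO libraries. The median of 24 fibroblast and matrix genes was 0.30, and -0.17 without Nf1-KO 3. The median of 15 blood endothelial genes was 0.14, and -0.29 without Nf1-KO 3. Of the matrix genes, Col5a3 alone had an unadjusted p under 0.05 (0.78 ± 0.31). Fap, the fibroblast activation protein, was at 11.7, 13.1 and 17.6 CPM in control and 31.5, 17.0 and 33.9 CPM in Nf1-KO libraries (0.96 ± 0.28). It was the only one of 18 myofibroblast and wound matrix genes with an unadjusted p under 0.05. Of 28 chemokine genes, 4 were higher (14.3%) and 2 lower (7.14%) at an unadjusted p under 0.05, against 9.13% and 1.58% of all genes tested. The groups separated in 4, with Ccl12, a monocyte attractant, and Cxcl12, made by fibroblasts, higher and Ccl1 and Ccl20 lower (7.14% each way, against 6.37% and 2.67% of all genes). Ccl12 was at 4.71, 6.65 and 6.21 CPM in control and 19.8, 8.61 and 15.0 CPM in Nf1-KO libraries (1.30 ± 0.34), and Cxcl12 had a log2 fold change of 0.54 ± 0.21. Ccl1 and Ccl20 had log2 fold changes of -1.46 ± 0.60 and -0.96 ± 0.51. The part of background and RNA composition of Nf1-KO 3 in these differences was not tested.

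**Figure D3:**
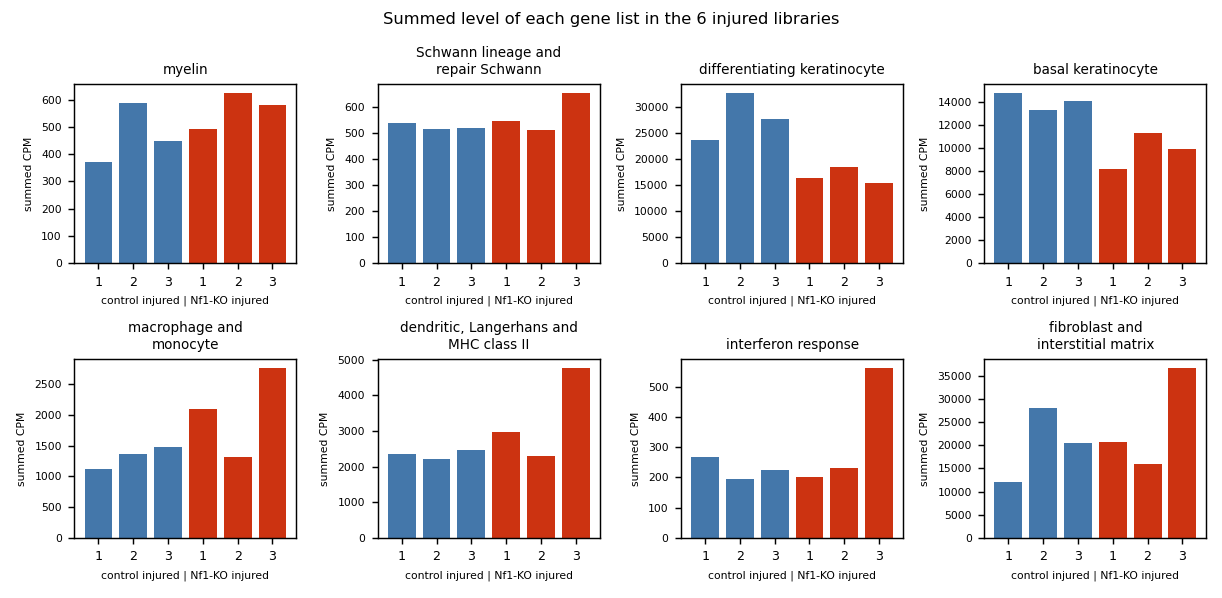
Summed level of 8 gene lists (TMM-normalised CPM, vertical axis from 0) in control injured libraries 1 to 3 and Nf1-KO injured libraries 1 to 3; each bar is 1 library. The differentiating and basal keratinocyte sums are lower in every Nf1-KO library than in every control library, while the macrophage, interferon and matrix sums are highest in Nf1-KO 3 and lie within the control range in Nf1-KO 2.

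Genes that report RAS and ERK activity lay on both sides at the level of whole skin. Of 18 such genes, all averaging at least 2 CPM, 1 was higher (5.56%, against 3.65% of all genes at that level) and none lower at an unadjusted p under 0.05, and the median was 0.12, against 0.04 over genes at that level. That gene was Etv1, a transcription factor induced by ERK, at 2.93, 4.12 and 5.41 CPM in control and 8.08, 5.64 and 12.3 CPM in Nf1-KO libraries (1.05 ± 0.37). Spry4, a feedback inhibitor of the pathway, was at 6.49, 7.35 and 6.21 CPM in control and 9.10, 8.68 and 9.90 CPM in Nf1-KO libraries (0.46 ± 0.29), above the controls in every library. Fosl1, an ERK-induced subunit of AP-1, lay below the controls in every library, at 13.3, 9.62 and 11.96 CPM in control and 7.18, 7.48 and 7.66 CPM in Nf1-KO libraries (-0.64 ± 0.45). Etv1, Spry4 and Fosl1 were the only genes of these 18 in which the groups did not overlap. Of the 18, 2 separated higher (11.1%) and 1 lower (5.56%), against 5.04% and 3.5% of all genes at that level. Of 25 genes that regulate RAS, 1 was higher and 1 lower at that p (4.0% each, against 9.13% and 1.58% of all genes tested). Rasgrp1, an exchange factor that activates RAS, was at 19.0, 17.2 and 13.0 CPM in control and 8.97, 11.5 and 9.98 CPM in Nf1-KO libraries (-0.69 ± 0.22). The RAS output of the recombined cells themselves was not measured.

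The genes with the smallest p over the whole table were of mixed kinds. Brinp3 (chromosome 1, 146494760 to 146902472), a gene best known from the nervous system, was at 0.444, 0.443 and 0.200 CPM in control and 8.33, 2.40 and 8.18 CPM in Nf1-KO libraries (4.10 ± 0.60, adjusted p = 0.079). Ifi202b (chromosome 1, 173962568 to 173982744), an interferon-inducible gene of a chromosome 1 cluster, was at 26.7, 52.1 and 28.5 CPM in control and 4.17, 6.98 and 7.75 CPM in Nf1-KO libraries (-2.51 ± 0.38, adjusted p = 0.0805). Lpo, lactoperoxidase, was at 1.96, 5.45 and 10.1 CPM in control and 0.192, 0.282 and 0.688 CPM in Nf1-KO libraries (-3.93 ± 0.64, adjusted p = 0.0885). These 3 came closest to the threshold, and all 3 were called by DESeq2. Socs2, a feedback inhibitor of cytokine and growth hormone signalling, was at 12.4, 10.4 and 9.09 CPM in control and 24.4, 17.4 and 26.9 CPM in Nf1-KO libraries (1.10 ± 0.24). Per3, a clock gene, was at 17.2, 16.7 and 21.9 CPM in control and 34.8, 25.8 and 48.8 CPM in Nf1-KO libraries (0.97 ± 0.21). Greb1, known as an oestrogen-responsive gene, and Cuedc1 had log2 fold changes of 2.23 ± 0.52 and 1.03 ± 0.23. Among lower genes, Fcgbp was at 417, 247 and 225 CPM in control and 109.8, 148 and 94.5 CPM in Nf1-KO libraries (-1.33 ± 0.27), and Tspan8, a tetraspanin of epithelia, at 28.9, 30.3 and 38.2 CPM and 9.04, 18.8 and 14.4 CPM (-1.21 ± 0.26). The remaining lower genes that the rule named were Fndc9, Sh3gl2, Gdpd1 and Tmem125, with log2 fold changes of -1.21, -1.06, -1.06 and -0.92.

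Chromosome 11 around Nf1, the region that holds the engineered allele, was examined gene by gene. Within 10 Mb of Nf1, 420 genes were tested, of which 32 were higher (7.62%) and 11 lower (2.62%) at an unadjusted p under 0.05, close to the 9.13% and 1.58% of all genes. Of the 320 of them averaging at least 2 CPM, 4.38% were higher and 2.81% lower, against 3.65% and 2.1% of all such genes. AA465934 (chromosome 11, 83291699 to 83294632), annotated as a processed transcript, lies near the Schlafen genes, 3.95 Mb from Nf1, and had the highest log2 fold change of the 320 genes. It was at 7.64, 0.633 and 0.869 CPM in control and 78.0, 49.7 and 87.9 CPM in Nf1-KO libraries (4.63 ± 0.82, adjusted p = 0.346). In uninjured skin it was at 3.67, 3.38 and 3.09 CPM in control and 25.3, 27.6 and 55.3 CPM in Nf1-KO libraries, so all 6 Nf1-KO libraries were above all 6 control libraries. Slfn9, in the same cluster, was at 15.0, 9.37 and 13.3 CPM in control injured and 7.05, 6.21 and 12.4 CPM in Nf1-KO injured libraries (-0.56 ± 0.29), and at 11.8, 12.6 and 15.5 CPM and 3.58, 3.98 and 3.43 CPM in uninjured skin (-1.86 ± 0.30). Evi2b, which lies within an intron of Nf1 and is read from the other strand, was at 3.20, 5.70 and 3.74 CPM in control and 8.97, 5.71 and 12.1 CPM in Nf1-KO libraries (1.08 ± 0.39). The library kit does not mark strand, so reads of Evi2b and of the Nf1 intron cannot be told apart. Evi2b is also a gene of leukocytes, and its level was highest in Nf1-KO 3, as was the summed level of the macrophage list. The part of leukocyte content in the Evi2b difference was not tested.

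**Figure D4:**
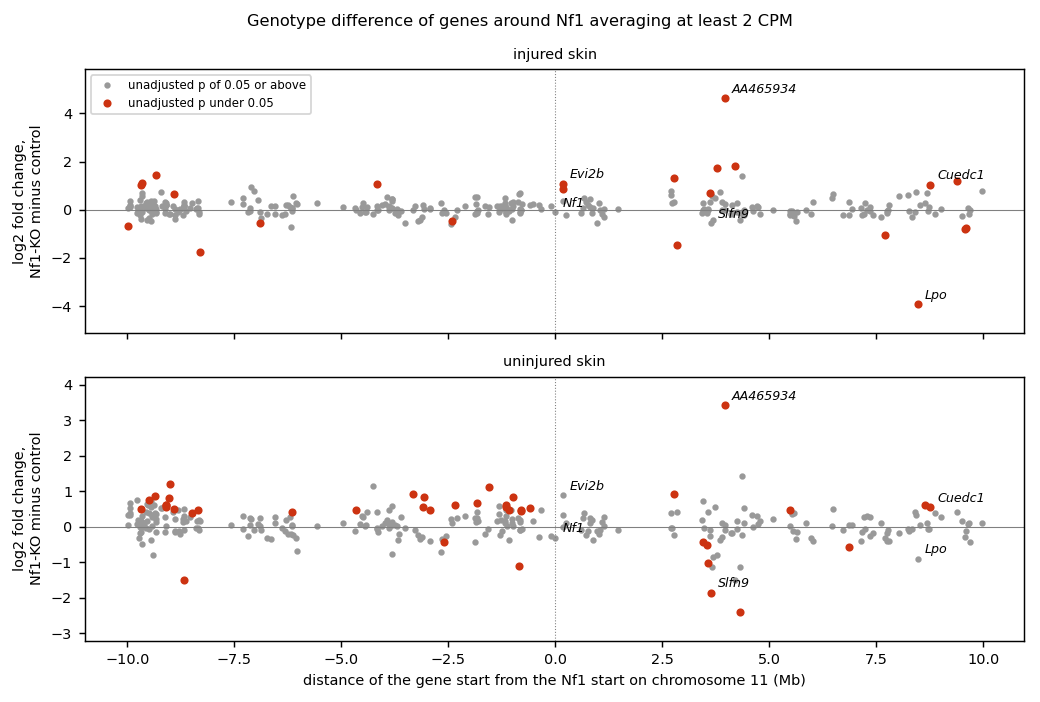
Log2 fold change (Nf1-KO minus control) of the 320 genes within 10 Mb of Nf1 that average at least 2 CPM in injured libraries, against distance from the Nf1 start in Mb, in injured skin (top) and uninjured skin (bottom); red points have an unadjusted p under 0.05. AA465934 is the highest point in both panels, and Nf1 lies near 0 in injured skin.

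The genotype difference in injured skin was set against that in uninjured skin by an interaction test in the same fit. No gene had an adjusted p under 0.05 (0 of 23635, 0.0%), and 2541 had an unadjusted p under 0.05 (10.8%). DESeq2 called 7 genes higher and 30 lower. Among differentiating keratinocyte genes, 8 of 20 had an unadjusted interaction p under 0.05, and the list's median was -0.68 in injured and 0.06 in uninjured skin. Krtdap, for example, was at 7704, 7478 and 7036 CPM in control uninjured and 8121, 8399 and 11480.0 CPM in Nf1-KO uninjured libraries (0.33 ± 0.23), and the difference between the states was -1.15 ± 0.33 (adjusted p = 0.442 in edgeR). In the uninjured state all 3 Nf1-KO libraries were thus above the controls, and in the injured state all 3 were below them. Among Schwann lineage genes, 7 of 20 had an unadjusted interaction p under 0.05 and the median was 0.70 in injured and 0.08 in uninjured skin. Foxd3, at 2.73, 2.07 and 1.83 CPM in control uninjured and 2.60, 1.38 and 3.07 CPM in Nf1-KO uninjured libraries (0.09 ± 0.52, a difference between the states of 1.79 ± 0.72), was one of them. S100b was not. It was at 4.23, 3.53 and 2.78 CPM in control uninjured and 8.24, 7.59 and 7.59 CPM in Nf1-KO uninjured libraries (1.16 ± 0.35, a difference between the states of 0.17 ± 0.48). For S100b the Nf1-KO libraries were above the controls in both skin states. The MHC class II gene H2-Ab1 was at 411, 337 and 423 CPM in control uninjured and 745, 595 and 624 CPM in Nf1-KO uninjured libraries (0.75 ± 0.24, a difference between the states of -0.22 ± 0.34).

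Zbtb16 gave one of the smallest interaction p-values. This transcription factor, also known as PLZF, was at 9.86, 22.2 and 19.0 CPM in control injured and 4.30, 9.03 and 6.63 CPM in Nf1-KO injured libraries (-1.36 ± 0.30). In uninjured skin it was at 43.2, 33.9 and 55.3 CPM in control and 103, 97.5 and 114 CPM in Nf1-KO libraries (1.25 ± 0.28). The groups were separate in both states and in opposite order (difference between the states -2.61 ± 0.41, adjusted p = 0.0984). Brinp3 had an interaction adjusted p of 0.0984 and stood in uninjured skin at 6.87, 4.76 and 2.40 CPM in control and 2.15, 4.21 and 3.16 CPM in Nf1-KO libraries. Ifi202b had an interaction adjusted p of 0.172 and stood there at 8.75, 7.44 and 19.2 CPM in control and 15.5, 18.6 and 12.4 CPM in Nf1-KO libraries. Injured libraries are female and uninjured ones male by their markers, and hair shaft keratins sum to 2386 CPM or more in injured and 49.7 CPM or less in uninjured libraries. Skin state, sex and hair growth cannot be told apart in these differences.

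**Figure D5:**
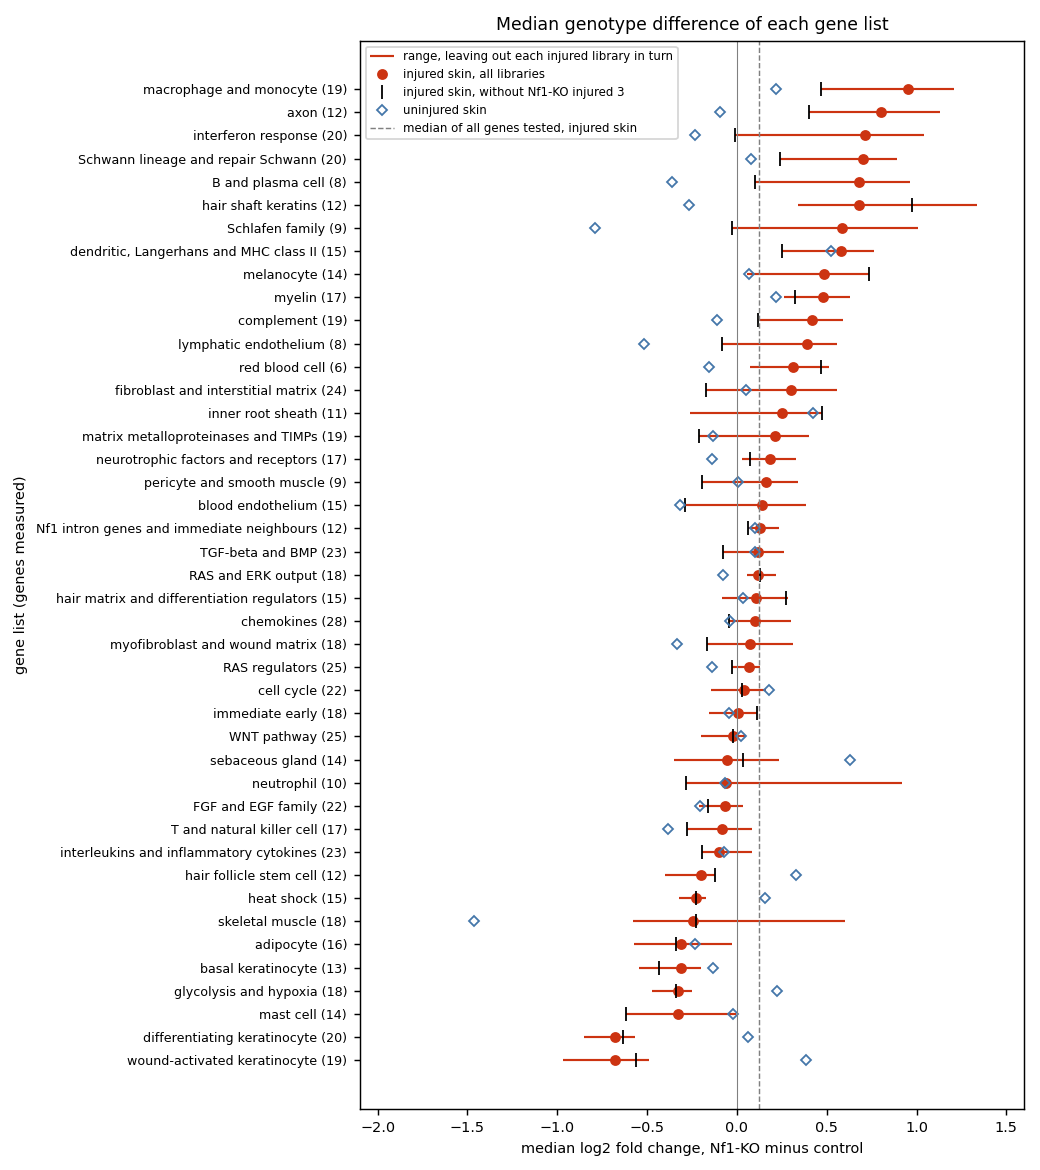
Median log2 fold change (Nf1-KO minus control) of 43 gene lists in injured skin (filled points), its range when each injured library is left out in turn (lines), its value without Nf1-KO injured 3 (ticks) and the median in uninjured skin (diamonds). The differentiating keratinocyte range stays between -0.85 and -0.57, while the interferon response range reaches -0.01 without Nf1-KO injured 3.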

How the data were processed

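RNA of whole skin was sequenced in 12 libraries, 3 in each of 4 groups by genotype and skin state, from 10 ng of total RNA with a kit that does not mark strand, per the labels' protocols. The authors deposited raw counts per Ensembl gene. The submitters' processing notes list HTSeq 0.5.3, STAR 2.5.2b, HOMER, SAMtools and DESeq2 with mm10 but no roles for them. The annotation and the strandedness of the counting were not stated there. Of 53379 gene IDs, 53274 matched GENCODE M21, and 1 count column of no listed sample was not used. Total counts per injured library limit the precision of genes of low count.

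Counts were fitted in edgeR 4.0.16 (R 4.3.3; TMM, filterByExpr with a count minimum of 10, robust quasi-likelihood, 4 group means over all 12 libraries), with Benjamini-Hochberg adjustment over 23635 genes. Genes were called at an adjusted p under 0.05. SEs were taken from the log2 fold change and its F statistic. The script was tested on simulated data. Alternatives were DESeq2 1.42.0, limma 3.58.1 voom, other scaling and filters, the injured libraries alone, the replicate number as a block, and each library left out in turn. Levels are CPM over TMM-scaled library sizes, and Nf1 was tested on log2(CPM + 0.5) by an exact permutation test.

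Named genes were up to 12 a direction, taken by smallest p where fewer were called, that averaged at least 2 CPM, had no overlap between the genotypes and had a gene symbol that is no clone or predicted model, plus up to 3 of smallest p from each of 45 lists, Nf1 and Prss56. Of the list members that met the rule not all are printed, further ones are named as examples, and a few genes that met the rule are not reported here. The libraries, lists and rules were chosen with earlier results of these data known. Replicates differed by more than sampling noise (chi-square per degree of freedom of 34.5 or more).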

Additional observations from a re-analysis of the deposited data

How the results depend on the processing

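Called genes in injured skin, 0 in either direction with all libraries in edgeR, stayed at 0 with median-of-ratios scaling, with a filter of 2 CPM in 3 libraries and with the injured libraries alone. Without a filter on low counts edgeR called 284 genes higher and 126 lower, DESeq2 called 63 and 61, and limma voom 1 and 0. Leaving out 1 injured library at a time gave 0 to 54 higher and 0 to 37 lower genes, with the most higher calls without Nf1-KO 1 and the most lower calls without Nf1-KO 2. For the genotype difference in injured minus that in uninjured skin, no filter gave 136 higher and 100 lower genes, DESeq2 7 and 30, and leaving out 1 of the 12 libraries 0 to 1 and 0 to 3.

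A pair of alternatives was chosen after seeing the data. A covariate for each library's share of ribosomal RNA-like counts gave 2 higher and 1 lower gene in injured skin and 1 and 1 for the difference between states. Leaving out both control 1 and Nf1-KO 3 gave 1 and 3 in injured skin and 0 and 3 for that difference.

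A fit with the replicate number as a block called 0 genes in each comparison, with all libraries and with the injured libraries alone. Deviations of same-numbered control and Nf1-KO injured libraries correlated at 0.187, 0.123 and -0.003, and nothing in the labels ties the numbers, so they were not taken as pairs.

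Nf1 had a log2 fold change of 0.15 without control 1 and 0.00 without Nf1-KO 2, and its range over the fits that leave out 1 library was -0.42 to 0.15. The exact test gave a log2 difference of -0.09 on raw CPM and -0.11 with a pseudocount of 0.1 CPM. No other of the 105 genes followed in the alternatives changed direction there, but list members whose values are not printed were followed only through their list's median. Over those 105 genes, 1545 values kept their side of the threshold and 122 passed it, most of them without a filter (48), in DESeq2 (35) or without Nf1-KO 2 (28). Of the medians of 45 lists, 34 values moved by more than the spread between libraries and 686 did not. The median of skeletal muscle genes, for example, was -0.24 and ranged from -0.58 to 0.60 without 1 injured library, the highest without control 2. Of those 34, 9 came from leaving out Nf1-KO 3 and 9 from leaving out both libraries. The cause of these changes was not tested.

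With 3 libraries a group, 1 library can decide a list, as Nf1-KO 3 does for interferon genes. Genes under about 2 CPM rest on few counts, and the higher background of Nf1-KO 2 and 3 touches them first. Counts from whole skin do not show which cells hold a transcript.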

Other observations

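Mndal and Ifi203 neighbour Ifi202b in the interferon-inducible cluster of chromosome 1 and were chosen after their values were seen. Ifi202b was lower in every Nf1-KO injured library than in any control, whereas both neighbours lay on the other side. Mndal was at 6.67, 2.79 and 6.42 CPM in control and 14.2, 10.5 and 38.4 CPM in Nf1-KO injured libraries (log2 fold change 1.99 ± 0.47, adjusted p = 0.346 in edgeR and 0.0283 in DESeq2). In uninjured skin it was at 0.752, 0.537 and 0.631 CPM in control and 2.87, 6.13 and 3.34 CPM in Nf1-KO libraries, so the genotypes were separate in both states. Ifi203 was at 11.6, 4.37 and 11.2 CPM in control and 19.0, 14.1 and 41.0 CPM in Nf1-KO injured libraries (1.45 ± 0.40). Mndal and Ifi203 overlap on the genome and the kit does not mark strand, so their counts are not independent and their split is uncertain.

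Fkbp5, a target of glucocorticoid signalling, was also chosen after its values were seen. It was at 33.9, 67.0 and 39.2 CPM in control and 16.4, 27.5 and 26.9 CPM in Nf1-KO injured libraries (-0.99 ± 0.45), and at 33.7, 34.8 and 117 CPM in control and 218, 223 and 223 CPM in Nf1-KO uninjured libraries (1.83 ± 0.45). The genotype order was thus opposite in the 2 skin states, with a difference between them of -2.82 ± 0.64 (adjusted p = 0.442 in edgeR). Of 15 heat shock genes, 13 had a negative log2 fold change in injured skin, with a median of -0.23 and 3 lower at an unadjusted p under 0.05, against 1.58% of all genes tested. Of 18 genes of glycolysis and hypoxia, 15 had a negative log2 fold change, with a median of -0.33 and 2 lower at that p.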
